A study of Mus musculus with 15 samples.

Results

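The genes described here are 35 genes of mitosis, the step in which a cell divides its copied chromosomes. They were chosen by symbol from a fixed list of mitotic cyclins, kinases, checkpoint proteins, kinetochore proteins, spindle motors and cytokinesis factors, together with Top2a, Mki67 and Foxm1. Of the 35, 34 were measured, among 18193 genes in all. Ccnb1, which encodes cyclin B1, was not measured, since no probe set carried its symbol alone in the annotation used here. The RNA came from 15 microdissected pieces of lung of K-RasG12V knock-in mice, 3 months after their lungs were infected with an adenovirus encoding Cre recombinase. The knock-in allele also expresses a colour marker, by which cells expressing the oncogene were recognised in the sections. Early hyperplastic lesions of about 500 cells each gave 7 arrays, of which the labels name 3 as H1 and 4 as H2, and normal cells cut from the same lung sections gave 8 arrays. The normal cells therefore came from the same K-RasG12V lungs, 3 months after the same infection, and not from uninfected or wild-type mice. The sources used here do not give the age of the mice, their number, which samples shared a mouse or what set H1 apart from H2. Regions cut from 1 mouse are not independent. The p-values rest on the spread among these pieces, so they may be too small where pieces of a group share a mouse and too large where the groups do.

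In a dividing cell, cyclins A and B activate the kinase Cdk1, which drives entry into mitosis together with the Polo and Aurora kinases. The kinetochore ties each chromosome to the spindle, the spindle checkpoint holds anaphase back until all chromosomes are attached, and the anaphase-promoting complex with its activator Cdc20 then destroys cyclin B so that the cell can divide. The transcripts of these genes are low in resting cells and peak together in G2 and mitosis, through FOXM1, B-MYB and NF-Y at their promoters. In adult lung few cells divide at any time, and alveolar type 2 (AT2) cells, which make surfactant, can re-enter the cell cycle.

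Promoters of 29 of the 35 genes were found in the RefSeq table for GRCm38.p6, as 300 bases of which 250 lie before the transcription start. They were searched on both strands for 2 short motifs known from genes of G2 and mitosis. These were the cell cycle genes homology region (CHR, here TTTGAA or TTCGAA) and the CCAAT box (CCAAT), which NF-Y recognises. A CHR match was present in 22 of the 29 (75.9%), against 19.4% of all 27025 promoters of the table, and a CCAAT match in 22 of the 29 (75.9%), against 37.9%. Both stood in 19 (65.5%), against 7.7%, and at least 2 CCAAT matches stood in 15 (51.7%), against 12.2%. Neither stood in the windows of 4 genes, Nuf2, Nusap1, Mad2l1 and Birc5. Such a match is a description of the sequence and was not tested as a site. Ccna2, Aurkb, Kif20a, Tpx2, Incenp and Foxm1 were not among the matched promoters. The promoters of 4 genes are shown because their levels lead the comparisons below (Ccnb2, Mki67 and Kif2c) or because the gene encodes the kinase that Ccnb2 activates (Cdk1). Each runs 5′ to 3′ along the gene from 170 bases before the start to 30 after it, with CHR and CCAAT matches of either strand in capitals (TTCAAA and ATTGG are the reverse forms).
Ccnb2 promoter, chr9:70421525-70421724, minus strand: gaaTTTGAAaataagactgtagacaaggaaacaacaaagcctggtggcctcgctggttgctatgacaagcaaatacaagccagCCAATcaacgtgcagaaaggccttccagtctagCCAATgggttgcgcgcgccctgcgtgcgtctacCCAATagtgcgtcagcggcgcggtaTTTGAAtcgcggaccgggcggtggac
Mki67 promoter, chr7:135716350-135716549, minus strand: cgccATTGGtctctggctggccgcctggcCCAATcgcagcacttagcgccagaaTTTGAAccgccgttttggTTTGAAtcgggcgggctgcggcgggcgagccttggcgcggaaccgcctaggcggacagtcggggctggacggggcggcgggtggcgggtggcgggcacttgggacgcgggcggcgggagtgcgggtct
Cdk1 promoter, chr10:69352883-69353082, minus strand: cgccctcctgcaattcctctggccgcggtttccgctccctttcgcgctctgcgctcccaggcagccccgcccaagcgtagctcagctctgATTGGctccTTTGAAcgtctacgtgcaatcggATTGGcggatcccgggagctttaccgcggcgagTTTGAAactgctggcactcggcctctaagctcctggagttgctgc
Kif2c promoter, chr4:117178743-117178942, minus strand: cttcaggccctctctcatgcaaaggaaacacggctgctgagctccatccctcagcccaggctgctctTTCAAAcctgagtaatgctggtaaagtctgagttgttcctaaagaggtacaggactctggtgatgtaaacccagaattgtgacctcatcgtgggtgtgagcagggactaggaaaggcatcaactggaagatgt

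In these windows Ccnb2 had 3 CCAAT matches at -87, -54 and -21 from the start and CHR matches at -167 and 5. Mki67 had CHR matches at -116 and -98 and CCAAT matches at -166 and -141, and Cdk1 had CHR matches at -71 and -15 and CCAAT matches at -80 and -48. Kif2c had 1 CHR match, at -103 on the other strand, and no CCAAT match.

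The arrays themselves differed in ways that bear on low genes such as these. The standard deviation of the log2 signals over all genes of an array, called spread here, was 1.139 to 1.669 on normal arrays, 1.312 to 1.495 on H1 arrays and 1.519 to 1.779 on H2 arrays. The share of all genes above a log2 signal of 6 was 8.5% to 18.8%, 12.2% to 14.8% and 14.9% to 20.4% in the same order. The log2 signal of the 3′ Gapdh control minus that of its 5′ control, a value that follows RNA state and amplification, was 1.55 to 3.25 on normal arrays (mean 2.53), 2.26 to 2.94 on H1 arrays (mean 2.54) and 2.66 to 4.58 on H2 arrays (mean 3.32). The H2 mean leans on replicate 7, at 4.58, since the next H2 array read 3.11. Mean levels of tissue markers also differed. The mean log2 signal of 4 pan-epithelial markers was 4.05 to 7.17 in normal cells, 6.45 to 7.48 in H1 and 7.57 to 8.68 in H2. That of 6 AT2 markers averaged 7.65, 8.71 and 9.42, with ranges of 4.54 to 10.09, 7.73 to 9.47 and 8.42 to 10.2. The 6 endothelial markers averaged 5.33, 4.56 and 4.68, and the 3 leukocyte markers 6.42, 6.50 and 7.37. Normal arrays ran from 4.125 to 6.61 for the endothelial and from 3.87 to 7.98 for the leukocyte markers. For the AT2, endothelial and leukocyte markers all H1 arrays lay inside the normal range, and the H2 arrays overlapped it. Of the 3 club cell markers, 3 averaged under a log2 signal of 3.99 in normal cells and 2 in each lesion group (Scgb1a1 and Scgb3a2). The 2 erythroid markers did so in every group. Spread and the 3′ to 5′ control differences entered some fits below as covariates, and the tissue markers entered none. Every H2 array had a wider spread than every H1 array, so such a fit cannot divide spread from group there. What part these differences had in the values below was not tested.

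**Figure D1:**
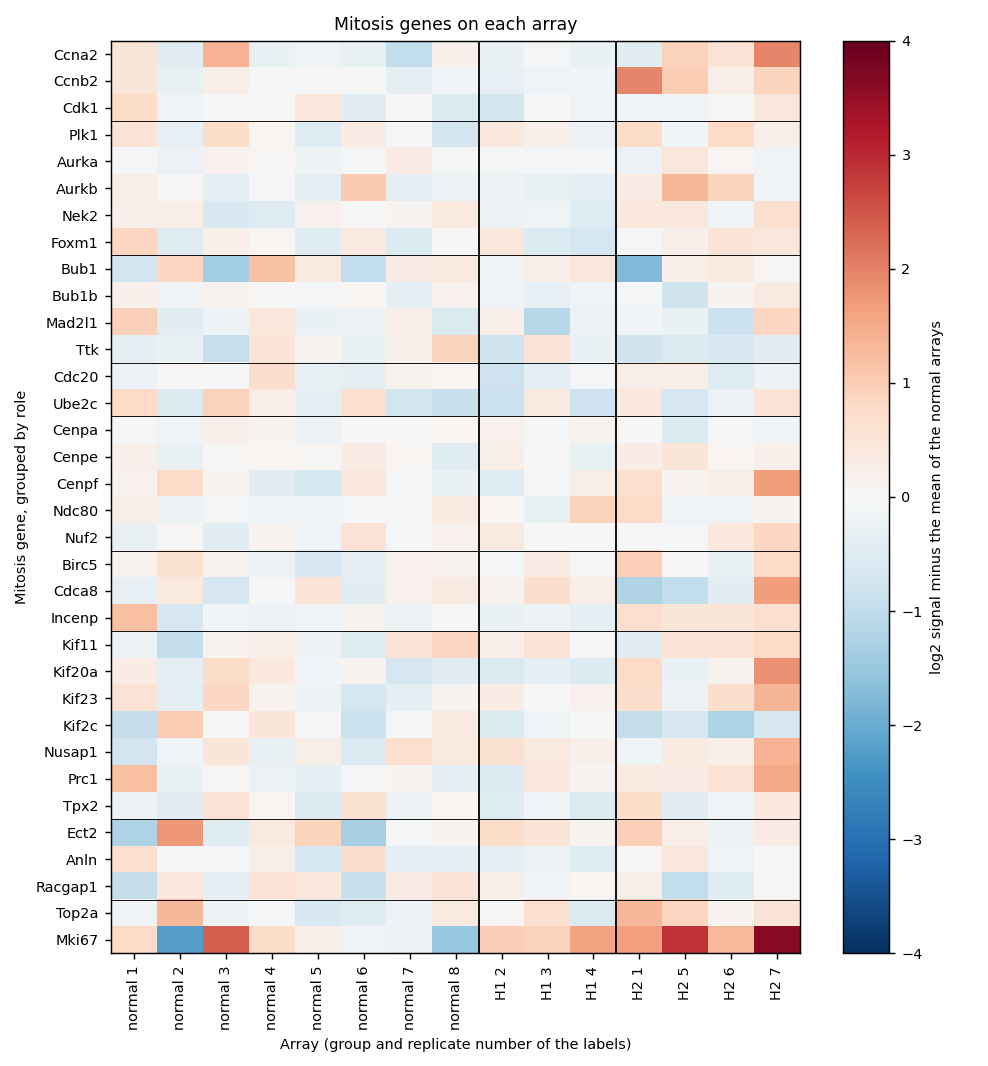
Each row is a mitosis gene and each column an array, in the order normal, H1 and H2, and the colour gives the log2 signal minus the mean of the 8 normal arrays. The colours are faint for most genes, Mki67 runs from deep blue in normal replicate 2 to deep red in H2 replicate 7, and H2 replicate 7 holds the highest level of 11 of the 34 genes.

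Most mitosis genes were measured near the bottom of the scale. The median of all probe set means was 3.99, a level that stands here as a mark for signals near background. Of the 34 genes, 13 had a mean below it on normal arrays, 11 on H1 arrays and 7 on H2 arrays. A mean above 6 was reached in normal cells by Cdca8 alone, in H1 by Cdca8 and Mki67, and in H2 by Ccna2, Incenp and Mki67. The median level of the 34 genes was 4.15 to 4.43 on the normal arrays, 4.18 to 4.33 on the H1 arrays and 4.45 to 4.74 on the H2 arrays. By this measure the H2 arrays did not overlap the others. Each gene's level minus its mean over all arrays had a median of -0.22 to 0.07, -0.12 to -0.07 and 0.02 to 0.49 in the same order. The number of genes above their own median was 8 to 19, 8 to 12 and 15 to 26. By these further measures the H2 arrays overlapped the normal arrays but not the H1 arrays. On each normal array 13 to 17 of the genes lay above the median of that array's genes, on each H1 array 15 to 17 and on each H2 array 19 to 21. In bulk RNA, a larger share of dividing cells and more of these transcripts per cell cannot be told apart.

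The comparison of lesions with normal cells asks which genes differ in early K-Ras-driven growth. No mitosis gene passed limma's test at an adjusted p under 0.05. Across all genes 0.291% passed. The differences of the 34 genes had a median of 0.15 on the log2 scale, against -0.06 for all genes, with 22 above 0 and 12 below. Without H2 replicate 7 this median was 0.05, with array spread as a covariate 0.03 and with the Gapdh difference as a covariate 0.04. At an unadjusted p under 0.05 there were 2, Mki67 upward and Kif2c downward, beside 12.8% of all genes. No mitosis gene separated the 7 lesion arrays from the 8 normal arrays, as 0.225% of all genes did. The 95% interval of the difference included 0 for 32 genes and reached a log2 difference of 1 in either direction for 6.

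H1 by itself gave 0 mitosis genes at an adjusted p under 0.05 and 0 at an unadjusted p under 0.05 by limma when compared with normal cells, where 0.011% and 4.23% of all genes passed. The median difference was -0.08, against -0.05 for all genes, with 14 genes above 0 and 20 below. No gene separated the groups (1.4% of all genes did), and all 34 intervals included 0. For 11 genes the interval reached a log2 difference of 1, so a doubling or halving of these was not excluded at 3 arrays.

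In H2 against normal cells, Ccnb2, which encodes cyclin B2, was the 1 mitosis gene that rose (limma adjusted p = 0.0373), and 0 fell, where 3.38% of all genes passed. That share moved with the fit. It stood for 525 genes higher and 90 lower, and the counts were 102 and 17 without H2 replicate 7, 108 and 16 without H2 replicate 6, 57 and 98 with spread and 39 and 10 with Gapdh as a covariate, and 1104 and 274 without normal replicate 3. The median difference of the 34 genes was 0.28, against -0.04 for all genes, and 25 genes (73.5%) lay above 0, against 46.3% of all genes. At an unadjusted p under 0.05, Ccnb2, Mki67, Prc1 and Incenp were higher and Kif2c lower, 5 of 34 beside 21.4% of all genes. No mitosis gene had all H2 arrays outside the normal range, as 3.79% of all genes did. Intervals included 0 for 29 genes and reached a log2 difference of 1 for 18. With array spread as a covariate the median was 0.12, and without H2 replicate 7 it was 0.18. With the most variable probe set of each gene it was 0.10, the lowest of the 13 alternatives other than removing 1 array.

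The lesion groups were also set against each other, with differences given as H2 minus H1. By limma 0 mitosis genes passed, where 0.0055% of all genes did, and the lowest adjusted p was 0.28, for Ccnb2. The median difference was 0.33, against 0.06 for all genes, with 26 genes above 0 and 8 below. At an unadjusted p under 0.05 there were 5, all higher in H2 (12.3% of all genes passed, in either direction). On all H2 arrays Ccnb2, Incenp, Kif20a, Aurkb and Anln lay above all H1 arrays and Kif2c lay below them, or 6 of 34 genes, while 18.2% of all genes separated these small groups. The H1 and H2 comparisons with normal cells share the 8 normal arrays.

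**Figure D2:**
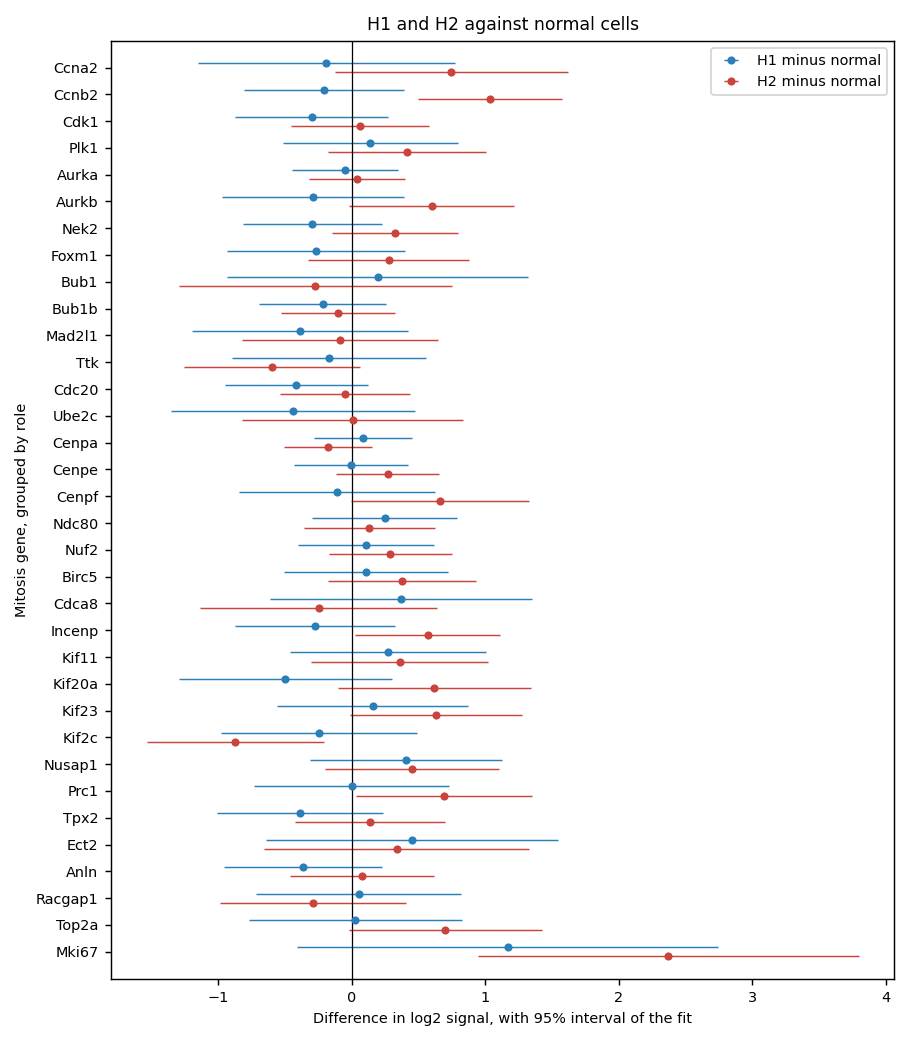
Each dot is the difference from normal cells in log2 signal for H1 (blue) or H2 (red), with its 95% interval from limma, for the 34 mitosis genes in the order of their roles. All H1 intervals cross 0, and of the H2 intervals those of Ccnb2, Mki67, Incenp and Prc1 lie above 0 and that of Kif2c below it.

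The mitotic cyclins come first, since they hold the 1 call. Ccnb2 had log2 signals of 2.17 to 3.00 in normal cells, with a median of 2.52. Its H1 arrays read 2.18, 2.33 and 2.42, and its H2 arrays 4.49, 3.52, 2.78 and 3.42 (replicates 1, 5, 6 and 7). Of the H2 arrays 3 lay above every normal array and the remaining one, replicate 6, lay inside the normal range, while the H1 arrays all lay within it. Ccnb2 rose in H2 by 1.03 ± 0.25 (SE), or 2.05-fold, with a 95% interval of 0.49 to 1.57 (limma adjusted p = 0.0373). In H1 it differed by -0.21 ± 0.28, and H2 minus H1 was 1.24 ± 0.32 (limma adjusted p = 0.28). Means of 2.52 and 3.55 lie below the mark of 3.99, so the size of the rise is not well determined, and the gene has no second probe set. When each of the 15 arrays was removed in turn, the call was lost in 10 fits (normal replicates 2, 4, 5, 7 and 8, H1 replicates 3 and 4, H2 replicates 1, 5 and 7), with adjusted p-values of 0.0509 to 0.0968. Without H2 replicate 1 the difference was 0.72. The call was also lost with array spread as a covariate (0.93, adjusted p = 0.207) or with the 3′ to 5′ difference of Actb (0.86, 0.225) or Gapdh (1.04, 0.171), in a fit on only the normal and H2 arrays (1.03, 0.0675) and without the narrowest normal arrays, replicates 2 and 8 (0.97, 0.0919).

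Ccna2, cyclin A2, which acts from S phase into mitosis, had signals of 4.31 to 6.68 in normal cells with a median of 5.07. Its H1 arrays read 5.04, 5.22 and 5.03 and its H2 arrays 4.86, 6.21, 5.84 and 7.23. Only H2 replicate 7 lay above the normal arrays, and the difference of 0.74 ± 0.41 did not pass (limma adjusted p = 0.309). Cdk1, the kinase that both cyclins activate, had signals of 3.79 to 5.07 in normal cells with a median of 4.30, of 3.59, 4.33 and 4.15 in H1 and of 4.17, 4.19, 4.39 and 4.79 in H2. All 4 H2 arrays lay inside the normal range. The difference in H2 was 0.06 ± 0.24 with an interval of -0.46 to 0.58. Its sign turned in some fits, to -0.24 with array spread as a covariate.

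Mki67 encodes Ki-67, which coats mitotic chromosomes and is widely used as a marker of cycling cells. Its log2 signal was 3.31 to 7.97 in normal cells, with a median of 5.56. The H1 arrays read 6.52, 6.45 and 7.13 and the H2 arrays 7.17, 8.43, 6.83 and 9.18. Every lesion array lay above 7 of the 8 normal arrays, and normal replicate 3, at 7.97, lay above all but 2 of them. The difference was 1.85 ± 0.59 (3.62-fold) in lesions (limma adjusted p = 0.196), 1.17 ± 0.74 in H1 (0.997) and 2.37 ± 0.67 (5.17-fold) in H2 (0.0651). None passed, although the interval in H2 ran from 0.94 to 3.80. H2 minus H1 was 1.20 ± 0.84 (limma adjusted p = 0.547).

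Among normal cells Mki67 followed the array's spread at its extremes. The arrays of narrowest spread, replicates 2 and 8 (1.14 and 1.20), had the lowest Mki67, at 3.31 and 4.00, and the array of widest spread, replicate 3 (1.67), had the highest. Between these the order was looser, since replicate 6 (1.51) read 5.40 and replicate 4 (1.33) read 6.25. Among H2 arrays replicate 7, of widest spread (1.78), read highest, and replicate 6, the next widest (1.70), read lowest. With spread as a covariate the H2 difference was 0.72 ± 0.54 (limma adjusted p = 0.622) and the lesion difference 0.85, and with the Gapdh difference as a covariate the H2 value was 1.47. Without normal replicates 2 and 8 the lesion difference was 1.23, the H1 difference 0.54 and the H2 difference 1.75. Without normal replicate 3 the H2 difference passed the threshold (2.72, adjusted p = 0.013).

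Top2a, the topoisomerase that untangles copied chromosomes, had signals of 3.00 to 4.93 in normal cells with a median of 3.44. Its H1 arrays read 3.65, 4.25 and 3.03 and its H2 arrays 4.96, 4.46, 3.73 and 4.12. The H2 arrays lay above the normal median but 3 of the 4 lay below normal replicate 2, the highest. The difference in H2 was 0.70 ± 0.34 (limma adjusted p = 0.246), and with the mean of its 3 probe sets it was 0.19. It was 1.31 with spread (adjusted p = 0.0993) and 1.23 with Gapdh (0.0975) as a covariate.

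**Figure D3:**
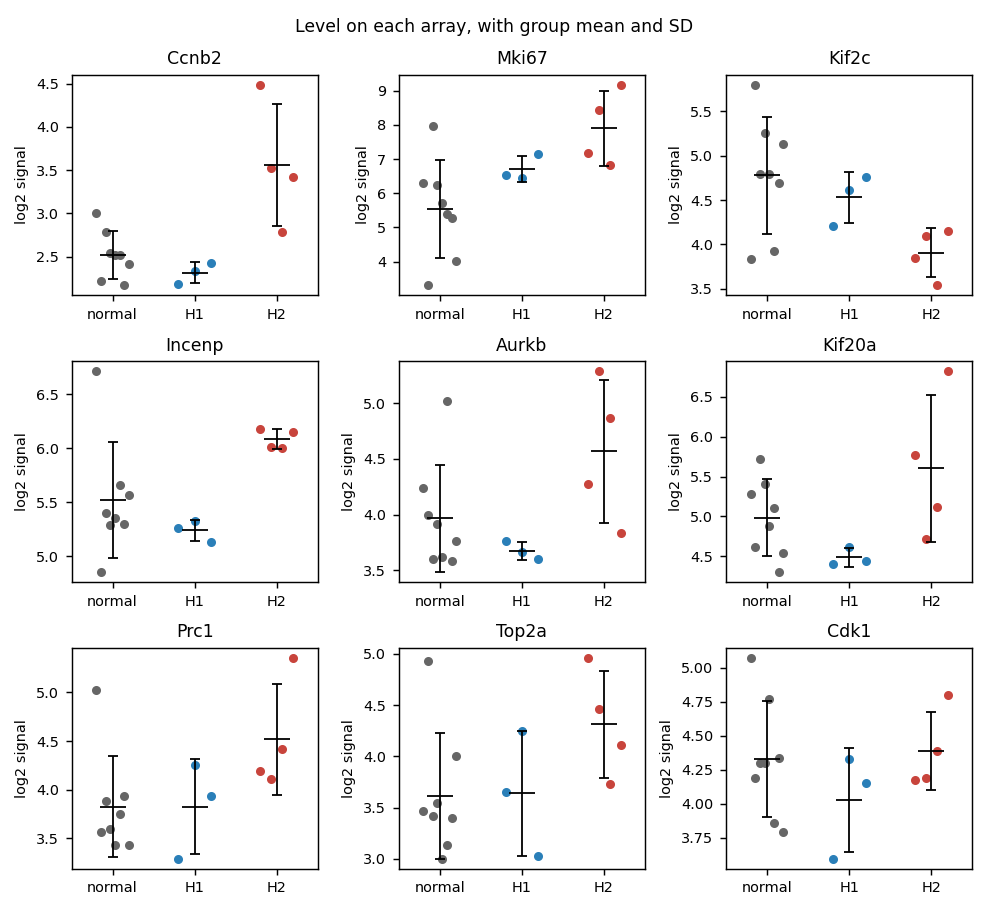
Each panel shows 1 gene, with a point for each array of normal cells (8), H1 (3) and H2 (4), the group mean as a horizontal line and the SD as an error bar, in log2 signal on an axis of its own that does not start at 0. For Ccnb2, 3 H2 arrays lie above all normal arrays, for Mki67 the groups overlap through 1 normal array at 7.97, and for Cdk1 the H2 points lie among the normal ones.

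The mitotic kinases and Foxm1 had small positive differences in H2, 5 of 5 above 0 with a median of 0.33, and none passed. Plk1, the Polo-like kinase needed for mitotic entry and spindle assembly, read 3.33 to 4.81 in normal cells (median 4.08), 4.51, 4.28 and 3.86 in H1 and 4.80, 3.98, 4.86 and 4.31 in H2. Its groups overlapped throughout, and the H2 difference was 0.41 ± 0.28 (limma adjusted p = 0.412) or, with spread as a covariate, -0.05. Aurka, the centrosomal Aurora kinase, read 4.08 to 4.63 in normal cells (median 4.26), 4.26, 4.26 and 4.24 in H1 and 4.07, 4.76, 4.37 and 4.16 in H2. Its H2 difference was 0.04 ± 0.17, with an interval of -0.32 to 0.40. With the mean of its 2 probe sets the value was -0.08.

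Aurkb, the Aurora kinase of the chromosomal passenger complex, read 3.59 to 5.02 in normal cells (median 3.84). It read 3.76, 3.67 and 3.60 in H1 and 4.27, 5.28, 4.87 and 3.84 in H2. All H2 arrays lay above all H1 arrays, but 3 of the 4 lay within the normal range. H2 minus normal was 0.60 ± 0.29 (limma adjusted p = 0.246) and H2 minus H1 was 0.89 ± 0.36 (0.357). With the mean of its 2 probe sets these values were 0.11 and 0.28, and without H2 replicate 5 the first was 0.36.

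Foxm1, the transcription factor of the G2 and M program, read 4.16 to 5.56 in normal cells (median 4.75), 5.15, 4.17 and 4.00 in H1 and 4.64, 4.92, 5.22 and 5.16 in H2. All H2 arrays lay within the normal range, with a difference of 0.28 ± 0.28 (limma adjusted p = 0.604). With the mean of its 4 probe sets the value was -0.10. Nek2, a kinase of centrosome separation, differed by 0.33 ± 0.22 from normal cells (0.414) and by 0.62 ± 0.28 from H1 (0.387), and 3 of 4 H2 arrays lay above the highest array of each.

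The spindle checkpoint genes were the 1 group of roles with every H2 difference below 0, 4 of 4 with a median of -0.19 on the probe sets used, and 0 passed limma's test. Another probe set of Bub1 was higher in H2 by 0.54 and another of Bub1b by 0.58. Ttk, the checkpoint kinase also called Mps1, differed by -0.60 ± 0.31 in H2 (limma adjusted p = 0.276). Its H2 arrays read 4.49, 4.75, 4.69 and 4.83, all below the normal median of 5.21 but above the lowest normal array, at 4.38. Bub1, a kinase that recruits checkpoint proteins to the kinetochore, differed by -0.27 ± 0.48, with 1 H2 array at 2.87 and 3 between 4.69 and 5.02. Bub1b, which encodes BubR1, differed by -0.10 ± 0.20, and Mad2l1, which encodes the Cdc20 inhibitor Mad2, by -0.09 ± 0.35.

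Of the genes of anaphase onset, Cdc20, the activator of the anaphase-promoting complex, read 3.81 to 4.88 in normal cells (median 4.17). Its H1 arrays read 3.35, 3.79 and 4.12 and its H2 arrays 4.39, 4.45, 3.67 and 3.98. Of the H1 arrays 2 lay below every normal array, the H2 arrays spread around the normal median, and the differences were -0.42 ± 0.25 in H1 (limma adjusted p = 0.997) and -0.05 ± 0.23 in H2 (0.922). The H1 value was -0.21 without H1 replicate 2, -0.25 with the mean of its 3 probe sets and -0.09 with the most variable one. Ube2c, the ubiquitin-conjugating enzyme of that complex, differed by 0.01 ± 0.39 in H2 and by -0.44 ± 0.43 in H1.

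Kinetochore and centromere genes had 4 of 5 differences above 0 in H2, with a median of 0.27, and none passed. Cenpf, a large kinetochore and nuclear matrix protein, differed by 0.66 ± 0.31 (limma adjusted p = 0.236). H2 replicate 7, at 6.03, was its only H2 array above the highest normal array, at 5.11. Other probe sets of Cenpf differed by 0.03 and -0.36. The kinetochore motor Cenpe differed by 0.27 ± 0.18, the microtubule-binding Ndc80 and its partner Nuf2 by 0.13 ± 0.23 and 0.29 ± 0.22, and the centromeric histone Cenpa by -0.18 ± 0.16.

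In the chromosomal passenger complex, which corrects faulty attachments, the scaffold Incenp read 4.86 to 6.71 in normal cells (median 5.38). Its H1 arrays read 5.26, 5.33 and 5.13 and its H2 arrays 6.18, 6.01, 6.00 and 6.15. The H2 arrays were close together and lay above all H1 arrays and above all normal arrays but replicate 1. The differences were 0.57 ± 0.26 from normal cells (limma adjusted p = 0.215) and 0.85 ± 0.32 from H1 (0.342). The difference from H1 was 2.36 with the most variable of its 5 probe sets (adjusted p = 0.315) and 0.55 with Actb as a covariate (0.971). Over the 13 alternatives other than removing 1 array, that difference ran from 0.27 to 2.36. Incenp passed the threshold in H2 when normal replicate 1 was left out. Birc5, which encodes survivin, differed by 0.38 ± 0.26 in H2 and Cdca8, which encodes borealin, by -0.25 ± 0.42. Cdca8 had H2 arrays on both sides of the normal range, from 4.92 (replicate 1) to 7.78 (replicate 7).

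Spindle motors and microtubule factors held 7 measured genes, of which 6 lay above 0 in H2, with a median of 0.45, and none passed. Kif2c, the kinesin MCAK, which takes microtubules apart at centromeres, went the other way. It read 3.83 to 5.80 in normal cells (median 4.79), 4.21, 4.62 and 4.76 in H1 and 3.84, 4.10, 3.54 and 4.15 in H2. Every H2 array lay below every H1 array, and 2 normal arrays, at 3.83 and 3.93, lay among the H2 arrays. The difference was -0.87 ± 0.31 in H2 (limma adjusted p = 0.128), -0.60 ± 0.28 in lesions (0.377) and -0.62 ± 0.39 for H2 minus H1 (0.507). With the mean of its 4 probe sets the H2 value was -0.12, and with spread as a covariate -0.38.

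Kif20a, a kinesin of the central spindle, read 4.31 to 5.72 in normal cells (median 5.00), 4.40, 4.62 and 4.44 in H1 and 5.77, 4.71, 5.11 and 6.82 in H2. All H2 arrays lay above all H1 arrays, and 2 of the 4 above all normal arrays. H2 minus H1 was 1.12 ± 0.42 (limma adjusted p = 0.344), or 0.71 without H2 replicate 7 and 0.61 with spread as a covariate. H2 minus normal was 0.62 ± 0.34 (0.308) and H1 minus normal -0.50 ± 0.38 (0.997).

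Prc1, which bundles the microtubules of the central spindle, read 3.43 to 5.03 in normal cells (median 3.67), 3.29, 4.25 and 3.93 in H1 and 4.19, 4.11, 4.42 and 5.35 in H2. The H2 arrays lay above 7 of the 8 normal arrays and 1 lay above all. The difference was 0.69 ± 0.31 (limma adjusted p = 0.213), and it was 0.41 without H2 replicate 7, 0.23 with the mean of its 2 probe sets, and 0.12, 0.45 and 0.36 with spread, Actb and Gapdh as covariates. Kif23, a motor of cytokinesis, differed by 0.63 ± 0.30 (0.24). Its other probe sets differed by -1.05 and 0.39, so its direction in H2 depends on the probe set.

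Nusap1, which binds spindle microtubules, read 3.13 to 4.49 in normal cells (median 3.89), 4.48, 4.24 and 4.07 in H1 and 3.69, 4.22, 4.07 and 5.25 in H2. Of its 7 lesion arrays 5 lay between the normal median and the highest normal array, 1 (H2 replicate 7) above and 1 (H2 replicate 1) below, and the lesion difference was 0.43 ± 0.25 (limma adjusted p = 0.495), or 0.27 without H2 replicate 7. Tpx2, the activator of Aurora A on the spindle, read 3.15 to 4.33 in normal cells (median 3.66), 3.24, 3.57 and 3.17 in H1 and 4.44, 3.29, 3.53 and 4.15 in H2. Its H1 arrays lay in the lower part of the normal range, with a difference of -0.39 ± 0.29 (0.997), and its H2 arrays lay on both sides of the normal median. Kif11, the motor Eg5 that pushes spindle poles apart, differed by 0.36 ± 0.31 in H2.

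Of the cytokinesis genes, Ect2, the exchange factor that activates RhoA, differed by 0.34 ± 0.47 in H2, its partner Racgap1 by -0.29 ± 0.33 and the ring scaffold Anln by 0.08 ± 0.25. None passed. The Anln H2 arrays, at 4.71 to 5.35, lay above all H1 arrays, at 4.39 to 4.64, and inside the normal range, and H2 minus H1 was 0.44 ± 0.32 (limma adjusted p = 0.555).

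Several probe sets of 1 gene often went different ways, which limits what the value of a single one shows. The 34 genes had 77 probe sets, of which 48 were higher in H2 than in normal cells. Of the 23 genes with more than 1 probe set, 4 had all of them higher, Ttk had both lower and 18 were mixed. Ccnb2, Mki67, Cdk1, Plk1 and Kif20a were among the 11 genes with 1 probe set. For Incenp the other 4 differed by 1.77, 0.08, 0.03 and -0.23, for Kif2c the other 3 by 0.47, 0.10 and -0.17, and for Top2a the other 2 by 0.19 and -0.32. Cdc20, at -0.05 on its highest probe set, had 2 others at 0.52 and 1.61. The probe set at 1.61 had a mean of 2.98 in normal cells and 4.59 in H2, and 2 of its 4 H2 arrays lay above the highest normal array. All 3 other probe sets of Foxm1 and of Tpx2 lay below 0 in H2, and so did the other one of Aurka, Aurkb and Prc1.

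**Figure D4:**
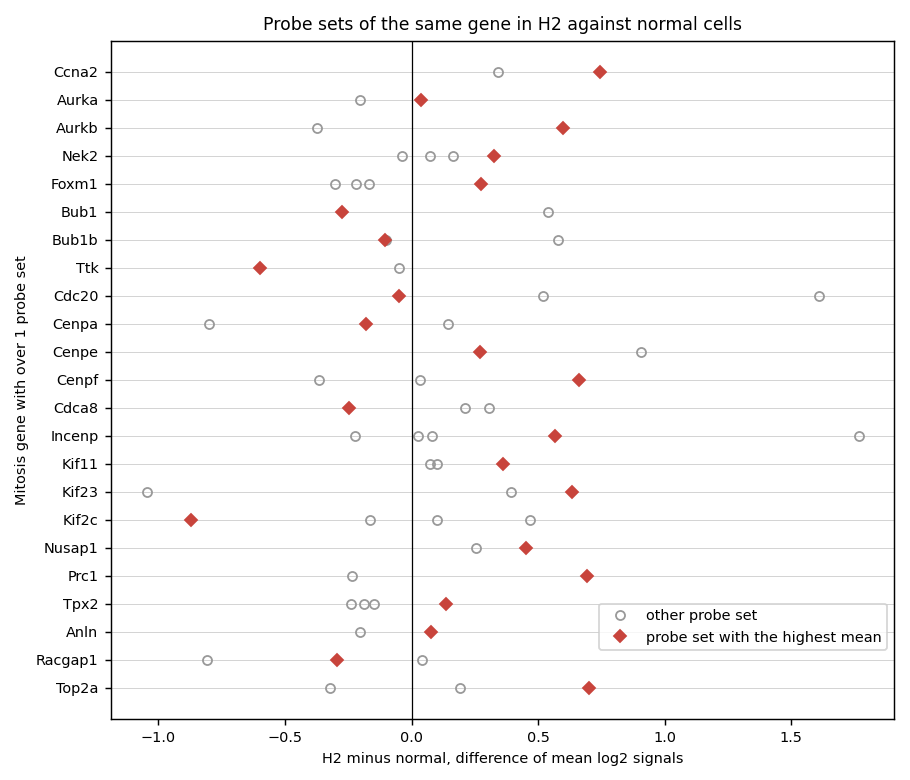
Each row is 1 of the 23 mitosis genes with more than 1 probe set, and each symbol a probe set, placed by its mean log2 signal in H2 minus that in normal cells. Red diamonds mark the probe set with the highest mean, which stands for the gene, and grey circles the others, and for 18 genes the symbols lie on both sides of 0.

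Wider lists of the cell cycle were set beside these genes. Calls in H2 are to be read against the 3.38% of all genes that passed, and counts at an unadjusted p under 0.05 against 21.4%. Of 68 other mitotic genes, 0 were called higher in H2 and 1 lower. This was Nsl1, a kinetochore protein of the Mis12 complex, which fell by 1.02 on the log2 scale (SE 0.24, limma adjusted p = 0.0345), from a mean of 4.41 to 3.38. Their median difference was -0.01, with 33 above 0 and 35 below. Those with the next lowest p were the condensin subunit Ncapg, at 1.56 ± 0.43 (0.0593), and the Cdk-binding protein Cks1b, at 0.94 ± 0.28 (0.0767). The list of the anaphase-promoting complex, with 12 subunits, the coactivator Fzr1 and the ubiquitin-conjugating enzyme Ube2s, 14 genes in all, had a median of 0.29 and 0 calls by limma, with 4 upward and 1 downward at an unadjusted p under 0.05. The largest was Anapc4, at 1.83 ± 0.53 (0.0691), or 0.34 with spread as a covariate. It passed with the mean of its probe sets (1.28, 0.0425) and without normal replicate 1, 3 or 6. Ncapg was at 0.67 with the mean of its probe sets and passed without normal replicate 3, H1 replicate 4 or H2 replicate 1. Its mean over all arrays lay below the mark of 3.99. Cks1b was at -0.15 with a repeated quantile normalization and at 0.61 without H2 replicate 7.

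Of 34 measured genes of DNA replication, 4 rose in H2 and 0 fell, with a median of 0.21. The subunits Mcm4 and Mcm6 of the replicative helicase rose by 2.49 ± 0.46 (limma adjusted p = 0.0112) and 2.69 ± 0.66 (0.0364). Rrm2, the regulated subunit of ribonucleotide reductase, rose by 2.41 ± 0.52 (0.0224) and Slbp, which binds histone mRNA in S phase, by 1.72 ± 0.44 (0.042). Of 20 regulators of the E2F, MYB and DREAM program, 2 rose, the retinoblastoma gene Rb1 by 1.19 ± 0.25 (0.0208) and E2f3 by 1.35 ± 0.32 (0.0318), and the median was 0.11. The mean of Rb1 over all arrays lay below the mark of 3.99, so the size of its rise is not well determined. In lesions as a whole Rrm2 alone of these lists passed (2.26 ± 0.43, adjusted p = 0.0345), and in H1 or between H1 and H2 none did.

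These 7 calls in H2, Nsl1 included, also changed when single arrays were removed. None of the 7 passed without H2 replicate 7 (adjusted p = 0.0523 for Mcm4 to 0.137 for Mcm6), and none passed with spread, Actb or Gapdh as a covariate. Mcm4 was also lost without H2 replicate 6, Rrm2 and Rb1 without H2 replicate 5 or 6, and E2f3 without normal replicate 7 or H2 replicate 1, 5 or 6. Nsl1 was lost without normal replicate 4, 5 or 7 or H2 replicate 1 or 5, and Mcm6 without normal replicate 2, 4, 7 or 8 or H2 replicate 1, 5 or 6. Slbp passed in 4 of 15 fits with 1 array removed, those without normal replicate 1, 3, 4 or 6. With a repeated quantile normalization Mcm4 and Rb1 passed. Nsl1, Mcm6, Rrm2, Slbp and E2f3 did not (limma adjusted p = 0.0655 for Rrm2 to 0.357 for E2f3). In a fit on only the normal and H2 arrays Nsl1, Mcm6 and Slbp were lost (0.0578, 0.061 and 0.0693). With the mean of a gene's probe sets the differences were 1.64 for Mcm4, 0.87 for Mcm6, 1.08 for Rrm2, 0.71 for Slbp, 0.38 for Rb1 and 0.53 for E2f3, of which the last pair did not pass. Rrm2 in lesions passed in 6 of the 15 fits, and with the mean of its probe sets it was at 0.99. The replication and mitosis lists were not tested against each other.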

How the data were processed

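The deposited values were log2 signals per probe set on 15 Affymetrix arrays. Per the labels' protocols, RNA was extracted with a PicoPure kit and amplified with the WT-Ovation One-Direct system, and per the submitters' processing notes the authors used affy and RMA (versions and genome build not given in the sources used here). RMA equalises probe intensities, not the spread of the summaries. Of the table's 45101 probe sets, 64 controls, 932 with several symbols and 9160 with none were left out. Each gene was represented by its probe set of highest mean signal, which left 18193 genes.

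Differences were tested with limma 3.58.1 (lmFit and eBayes) in R 4.3.3, for lesions in a fit with 2 groups and otherwise in a fit with 3 groups. P-values were adjusted by Benjamini-Hochberg over all genes, with calls at an adjusted p under 0.05. Errors are standard errors of the fit, and intervals cover 95%. The number of arrays limits the precision. The script was tested on simulated data.

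The mitosis genes, further lists, markers and naming rule were chosen with earlier results of these data known. Array values were given for genes called, for the 4 with the lowest p in each comparison, for those whose H2 arrays all lay outside the normal range, and for Mki67, Top2a, Cdk1, Aurka, Aurkb, Plk1 and Foxm1. Those of Ccna2, Ttk and others were added after their values were seen. Of the 68 other mitotic genes those called and up to 3 with the lowest p were named. Alternatives were the probe set rule, centring, a repeated quantile step, leaving out dim genes, a trended robust prior, array weights, a replicate block, fits on only the arrays compared, covariates for spread and RNA state, removal of the 2 narrowest normal arrays and leaving out each array.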

Additional observations from a re-analysis of the deposited data

Results flagged for a closer look

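Within a group of 4 or 8 arrays, 1 array stood far from the others in 6 of the 68 groups tested, where chance gives about 1 in 20. The size is the gap to the nearest array divided by the group's range. In normal cells this was replicate 1 for Incenp (6.71 against 4.86 to 5.66, ratio 0.567) and for Prc1 (5.03 against 3.43 to 3.93, ratio 0.683), replicate 6 for Aurkb (5.02 against 3.59 to 4.24, ratio 0.546) and replicate 4 for Cdc20 (4.88 against 3.81 to 4.31, ratio 0.532). In H2 it was replicate 1 for Bub1 (2.87 against 4.69 to 5.02, ratio 0.845) and replicate 5 for Cenpa (4.22 against 4.67 to 4.76, ratio 0.832).

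For Ccnb2 and Incenp every H1 array lay below the normal mean (2.52 and 5.52) and every H2 array above it. The share of all genes with this pattern was not computed, but 18.2% of all genes separated the H1 arrays from the H2 arrays. The H2 minus H1 difference was 1.24 for Ccnb2 and 0.846 for Incenp, and by limma neither passed (adjusted p = 0.28 and 0.342).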

How the results depend on the processing

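Of 1141 values under an alternative, 972 kept their direction and side of the threshold (or, for medians and counts, moved little), 30 moved, 107 were weaker, 14 were stronger and 18 reversed. The 972 include values that an alternative could not move, such as differences of genes with 1 probe set under another probe set rule. They also include values far from the threshold, so their number is not a measure of robustness. Those of the further genes (Nsl1, Ncapg, Cks1b, Anapc4, Mcm4, Mcm6, Rrm2, Slbp, Rb1 and E2f3) were added after seeing the data. For all that changed the cause was not tested, other than fewer genes or arrays entering a fit. Calls stayed at 0 in lesions, in H1 and between H1 and H2 under every alternative run. In H2 the count of 1 became 0 with dim genes left out (26 mitosis genes kept, without Ccnb2), with the replicate block, with only the arrays compared, with spread, Actb or Gapdh as a covariate and without the 2 narrowest normal arrays. It was 3 with array weights, where Kif2c (-0.91, adjusted p = 0.0393) and Mki67 (2.28, 0.0171) also passed, and 0 to 2 with 1 array left out. Ccnb2 passed in 6 of 12 settings. These include the mean of probe sets and the most variable one, which leave the values of its 1 probe set unchanged.

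The lesion median was 0.0301 with the spread covariate and 0.0392 with Gapdh. The H2 median was 0.131 with the mean of probe sets, 0.105 with the most variable one, 0.125 with spread and 0.178 with Gapdh, and 0.178 to 0.301 with 1 array left out. The H2 minus H1 median was 0.222 with the mean of probe sets, 0.162 with spread, and 0.254 (without H2 replicate 7) to 0.460 (without H2 replicate 6).

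In H2 against normal, signs turned for Aurka (-0.0836 with the mean of probe sets, -0.205 most variable, -0.028 spread, -0.0458 Actb, -0.0056 without the narrowest normal arrays, and -0.102 to 0.128 with 1 array left out). They also turned for Cks1b (-0.152 with repeated quantile normalization), for Foxm1 (-0.104, -0.221 and -0.0831 with the mean, the most variable and spread), for Plk1 (-0.0528 with spread) and for Cdk1. Cdk1 was at -0.121 with the block, -0.239 with spread, -0.162 with Gapdh and -0.0513 without the narrowest normal arrays, and at -0.0752 to 0.167 with 1 array left out.

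The replicate numbers showed no clear pairing of the samples. Same-numbered samples correlated at -0.14 to 0.38 and 1 of 7, number 2, correlated best with its own normal array. These correlations cannot settle which samples shared a mouse, since noise between arrays could hide it. With the replicate block, H2 had 0 mitosis genes called (34 of all genes were higher and 5 lower), Ccnb2 was at 1.00 (adjusted p = 0.145), and the 7 further genes did not pass (0.053 to 0.211).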
